A study of Sus scrofa with 6 samples.

Results

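Interferon-stimulated genes and the genes of class I antigen presentation were followed through 9 members: ISG15, MX1, OAS1 and IFIT3 as antiviral effectors, IRF1 and IRF7 as transcription factors, and B2M, TAP1 and TAPBP as parts of the class I route. The rule took rows by gene symbol and applied no threshold to their values. Of the 31908 Ensembl pig gene IDs in the table, 7 carried a member's symbol, and the TPM (a transcript level scaled to the total of its library and corrected for transcript length) of all listed transcripts of an ID were summed. IFIT3 and TAPBP had no row by name or by description and were not analysed here. IPEC-J2 cells, an untransformed epithelial line from the jejunum of a newborn piglet, were either given PBS (CON group, 3 libraries) or exposed to chenodeoxycholic acid, a primary bile acid, at 50 μM (CDCA group, 3 libraries), each for 24 h. Both groups came from this single line, with no genetic change and no infection or added interferon named in the labels, and the comparison asked how CDCA changed the transcriptome. The study's text calls the libraries biological replicates. The labels do not say that they came from separate cultures, so the p-values measure the spread between these libraries, which may be technical.

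Interferons are secreted when a cell senses foreign nucleic acid. They bind receptors that signal through JAK kinases and STAT factors, which with IRF9 switch on a large set of antiviral genes. Class I molecules, built from a heavy chain and beta-2-microglobulin, show peptides cut by the proteasome to T cells. The TAP transporter carries these peptides into the endoplasmic reticulum, where tapasin and chaperones load them. In the gut, epithelial cells are among the first to meet virus and carry type III interferon receptors.

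The libraries differed in composition before any member was considered. The listed TPM summed to between 351770 and 366073 per library, where the TPM of a complete set of transcripts total 1000000. Most of each total thus lies outside the listed rows, why was not settled, and a value of 0 speaks only for the listed rows of a gene. The mRNAs encoded in mitochondrial DNA took 13.8% to 15.0% of the listed TPM in the CON group and 2.90% to 3.45% in the CDCA group. Taking these mRNAs out of the totals moved the median log2 fold change of all tested genes from 0.05 to -0.08, so the changes of tested members are given below also relative to that median. Epithelial markers were present in both groups. They summed to 747 to 768 TPM in the CON group and 1302 to 1439 TPM in the CDCA group over 13 listed genes, and the most abundant, CLDN4 (a tight junction claudin), rose from 225 ± 11.2 to 806 ± 50.5 TPM (SD, n = 3 per group). Of the 8 tested epithelial markers, 6 rose and 1 fell at an FDR under 0.05, where 29.3% of all tested genes were higher and 23.9% lower. The gene that fell was KRT7 (log2 fold change -0.68, FDR = 7.4e-05, named after its values were seen). With the mitochondrial mRNAs out of the totals 4 rose and 2 fell. Markers of the intestinal absorptive cell were close to absent, with VIL1 (villin) at 0.00 to 0.64 TPM and CDX2, an intestinal transcription factor, at 0.00 to 0.02 TPM over the 6 libraries; both were named after their values were seen.

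ISG15, the ubiquitin-like protein that is attached to other proteins in the antiviral response, was the member that changed most. Its level was 87.0, 67.0 and 101 TPM in the CON group and 535, 703 and 527 TPM in the CDCA group. The lowest CDCA library stood far above the highest CON library, and the mean was 84.8 ± 16.9 TPM in CON and 588 ± 99.6 TPM in CDCA (SD, n = 3), a ratio of 6.93. The log2 fold change, on the scale of log2(TPM + 1), was 2.79 ± 0.17 (SE) with an FDR of 3.9e-05 in limma. Genes are termed called here if their FDR was below 0.05 and their log2 fold change exceeded 1 in size. By that rule 306 of 8708 genes (3.51%) were higher and 340 (3.9%) lower, or 221 and 462 with mitochondrial mRNAs out of the totals, and ISG15 ranked 14 of 8708 by log2 fold change. It was the only member called. The groups did not overlap for ISG15, which was true of 61.5% of all tested genes. Relative to the median of all genes the change was 2.74, and it was 2.72 relative to that median with the mitochondrial mRNAs taken out of the totals. In bulk libraries, more ISG15 in each cell and more cells that express it cannot be told apart. The ID has 1 listed transcript. In RefSeq's pig annotation an uncharacterised gene overlaps ISG15, and how strand was treated in the counting is not given in the sources used here.

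**Figure D1:**
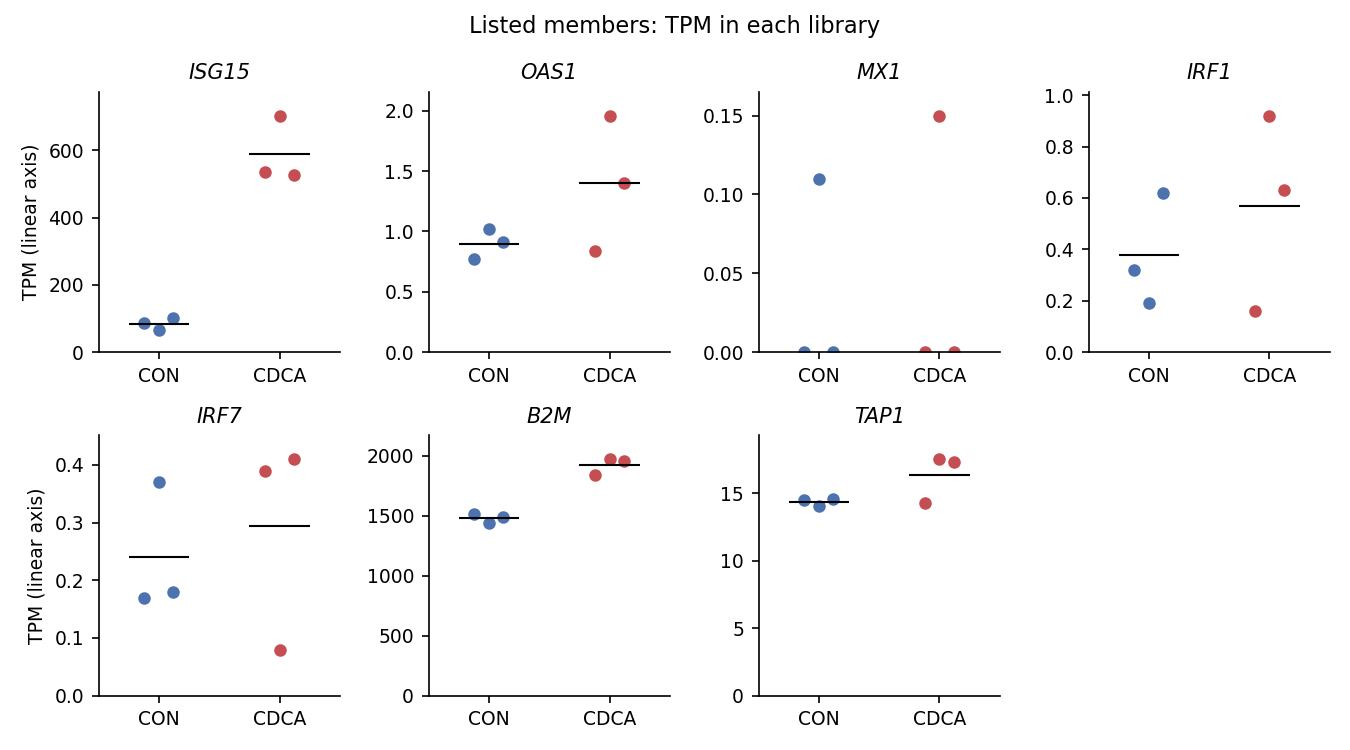
TPM of the 7 listed members in each of the 6 libraries, on linear axes that start at 0, with 3 points per group and a black line at the group mean (left out where a library is listed at 0). The CDCA points for ISG15 and B2M lie above all CON points, and the groups overlap for the other 5 genes.

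The other antiviral members were at very low levels. OAS1, which makes the messenger that activates RNase L when it meets double-stranded RNA, had 0.77, 1.02 and 0.91 TPM in the CON group and 0.84, 1.96 and 1.40 TPM in the CDCA group. The lowest CDCA library fell inside the CON range. The log2 fold change was 0.31 ± 0.19 (SE, FDR = 0.21), so OAS1 did not pass the test. Relative to the median of all genes it was 0.26, and 0.31 with the mitochondrial mRNAs out of the totals. The mean was 0.90 TPM in CON and 1.40 TPM in CDCA, so OAS1 passed the filter of a mean of 1 TPM only through the CDCA group. Without CDCA replicate 1 the log2 fold change was 0.49 and the FDR 0.039. In RefSeq, RPH3A overlaps OAS1. MX1, a GTPase that traps incoming virus, had listed values of 0, 0.11 and 0 TPM in the CON group and 0, 0.15 and 0 TPM in the CDCA group. It was therefore at or near 0 in every library of both groups. MX1 was under the filter of a mean of 1 TPM over the 6 libraries and was not among the tested genes. Where the filter was dropped, its FDR was 0.89.

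Both transcription factor members were also under 1 TPM. IRF1, a factor that interferon gamma and inflammatory signals induce, had 0.32, 0.19 and 0.62 TPM in the CON group and 0.16, 0.92 and 0.63 TPM in the CDCA group. The CDCA libraries held both the lowest and the highest of these values. IRF7, the main amplifier of type I interferon production, had 0.17, 0.37 and 0.18 TPM in CON and 0.39, 0.08 and 0.41 TPM in CDCA, again with overlapping groups. Without the filter the log2 fold changes were 0.17 (FDR = 0.65) for IRF1 and 0.05 (FDR = 0.80) for IRF7. No change of either factor was detected, and how many reads stand behind each value is unknown.

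B2M, the light chain shared by all class I molecules, was the most abundant member and ranked 33 of 8708 tested genes by mean level. It had 1514, 1438 and 1486 TPM in the CON group and 1835, 1971 and 1956 TPM in the CDCA group, with no overlap. The mean rose from 1479 ± 38.0 to 1921 ± 74.5 TPM (SD, n = 3), a ratio of 1.30 and a log2 fold change of 0.38 ± 0.04 (SE, FDR = 0.00044). With an FDR under 0.05, 29.3% of all tested genes were higher and 23.9% were lower (2550 and 2085 genes), or 1750 and 2781 genes with the mitochondrial mRNAs out of the totals. A rise of this kind was thus common, and B2M ranked 2086 of 8708 by log2 fold change. With the mitochondrial mRNAs taken out of the totals the log2 fold change was 0.22 (FDR = 0.0024), and relative to the median of all genes it was 0.33 before and 0.31 after. RefSeq lists 2 B2M loci in the pig and the table holds 1 ID, so reads from a near-identical copy cannot be told apart from it.

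The table lists 10 transcripts for the ID, 1 of them at 0 in all libraries, and the highest gave 70.7% of the B2M level in CON and 73.5% in CDCA. This transcript went from 1045 ± 37.6 to 1412 ± 67.2 TPM (SD, n = 3), a log2 fold change of 0.43 (FDR = 0.00087), and it carried most of the rise of the gene. The next 3 by level had log2 fold changes of 0.21, 0.26 and 0.61, each with an FDR under 0.05, where 23.1% of the 12205 tested transcripts were higher at that FDR. The fifth, at about 1 TPM, had a log2 fold change of 0.44 with an FDR of 0.28.

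TAP1, a subunit of the peptide transporter, had 14.5, 14.1 and 14.6 TPM in the CON group and 14.3, 17.5 and 17.3 TPM in the CDCA group. CDCA replicate 1 lay inside the CON range and the other 2 CDCA libraries lay above it. The log2 fold change was 0.17 ± 0.08 (SE) and the FDR 0.13, so the difference did not pass the test. Without CDCA replicate 1 it was 0.26 with an FDR of 0.015, and with the mitochondrial mRNAs out of the totals it was 0.02 with an FDR of 0.81. Relative to the median of all genes the TAP1 change was 0.12 with all libraries, and 0.11 with the mitochondrial mRNAs out of the totals. In all, of the 9 members 2 rose, 0 fell, 2 were tested and did not pass, 3 were under 1 TPM and 2 had no row.

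For TAPBP, which encodes tapasin, a gene ID of uncertain identity bears on the missing row. The table calls this ID ZBTB22, a zinc finger gene, while the table of symbols calls it TAPBP, and in RefSeq the 2 genes overlap. The ID had 25.5, 28.8 and 27.9 TPM in CON and 22.2, 23.2 and 20.3 TPM in CDCA, without overlap. Its log2 fold change was -0.31 ± 0.07 (SE, FDR = 0.0086). Which of the genes these values describe was not settled, and they are not counted among the members.

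The order of the members by level was B2M, ISG15, TAP1, OAS1, IRF1, IRF7 and MX1 in both groups by the group mean. B2M, ISG15 and TAP1 were separated from their neighbours in that order by more than the spread of the libraries. In the CON group IRF1 and IRF7 overlapped, and in the CDCA group OAS1 overlapped IRF1, IRF1 overlapped IRF7 and IRF7 overlapped MX1. The summed TPM of the 7 listed members was 1580 ± 51.5 in CON and 2528 ± 156 in CDCA (SD, n = 3). B2M and ISG15 made up nearly all of it.

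**Figure D2:**
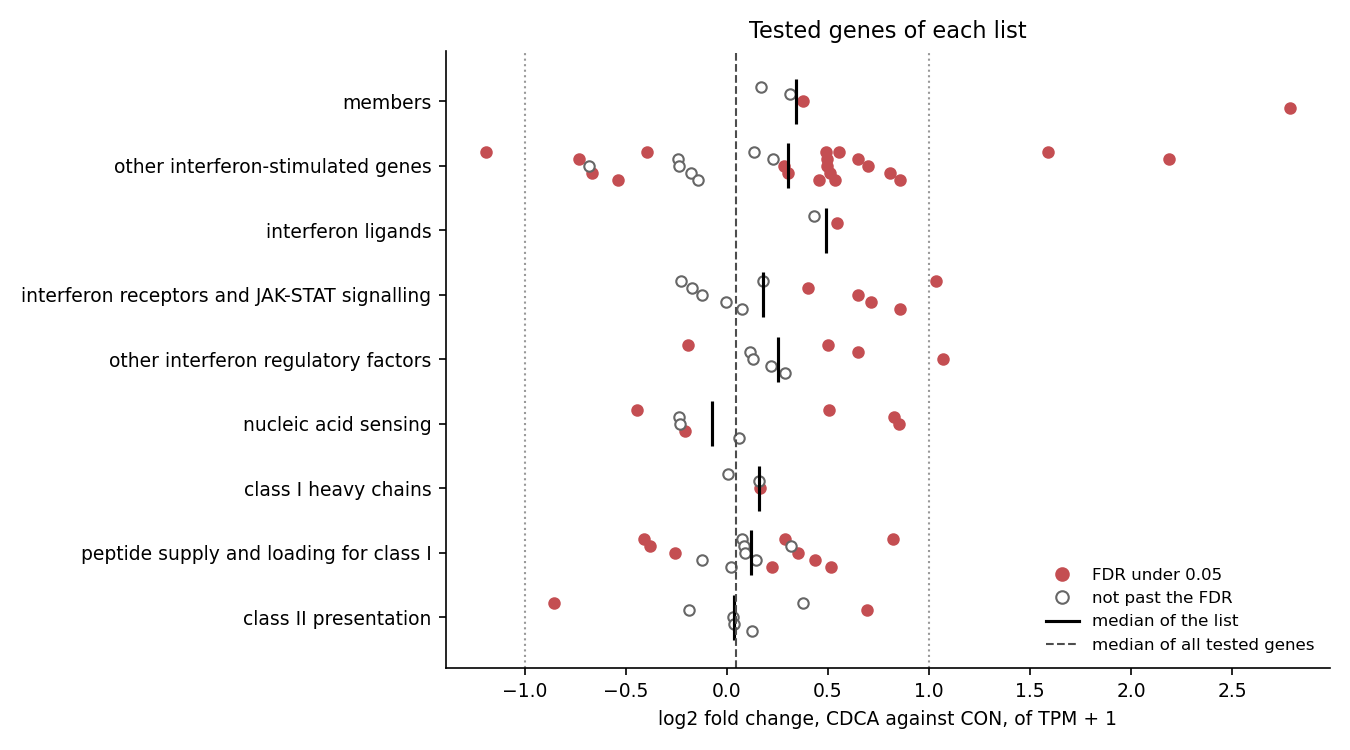
Log2 fold change of TPM + 1, CDCA against CON, for each tested gene of the members and of the pathway lists. Filled points have an FDR under 0.05, black bars are list medians, the dashed line is the median of all tested genes and dotted lines mark a log2 fold change of 1 in either direction. ISG15, IFIT1 and IFIT2 lie farthest to the right, and filled points occur on both sides of 0 in 5 of the 9 rows.

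Of 51 such genes given in the list, 47 had a row and 27 were tested, of which 15 rose, 5 fell and 7 did not pass, where 29.3% of all tested genes were higher and 23.9% lower. Their median log2 fold change was 0.30, beside 0.05 for all tested genes, and it was 0.18 beside -0.08 with the mitochondrial mRNAs out of the totals, where 9 rose and 6 fell. The 15 rises include IFIT2, which passed the filter only through the CDCA group. Without the filter 12 of the 47 rose and 5 fell, where 2583 of 22549 genes rose and 2054 fell. The median without the filter was 0.21, beside 0.006 for all genes. Called higher were IFIT1 and IFIT2, which bind viral RNA and translation factors, and called lower was IFITM1, a membrane protein that hinders viral entry. The IFITM1 row was matched by its description or another name after the table was seen.

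IFIT1 had 10.8, 8.42 and 10.8 TPM in CON and 46.5, 49.3 and 50.7 TPM in CDCA, a ratio of 4.89, with a log2 fold change of 2.19 ± 0.10 (SE, FDR = 1.1e-05). IFIT2 had 0.80, 0.74 and 1.03 TPM in CON and 4.33, 4.92 and 4.51 TPM in CDCA, and the log2 fold change was 1.59 ± 0.11 (SE, FDR = 4.9e-05). In RefSeq, IFIT2 and IFIT1 lie on either side of IFIT3, the member without a row. IFITM1 had 11.9, 14.2 and 13.7 TPM in CON and 4.09, 5.02 and 6.90 TPM in CDCA, and the log2 fold change was -1.19 ± 0.16 (SE, FDR = 0.0011). IFIT2 passed the filter only through the CDCA group, where it was high, so its test is not independent of the filter. Each of these 3 genes kept an FDR under 0.05 and its direction in all 14 alternatives tried, though by the highest listed transcript IFITM1 had a log2 fold change of -0.90 and was no longer called.

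The other 4 genes of the list that fell, named after their values were seen, each passed in all 14 alternatives. They were LGALS3BP (log2 fold change -0.73, FDR = 0.0026), a secreted glycoprotein, IFITM3 (-0.67, FDR = 7.8e-05), a relative of IFITM1, EPSTI1 (-0.54, FDR = 0.0035) and IFI30 (-0.40, FDR = 0.0009), a lysosomal thiol reductase that prepares antigen.

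The genes that attach ISG15 to its targets were named after their values were seen, and of those tested only UBE2L6 passed in all 14 alternatives. UBE2L6, the conjugating enzyme, had 3.68, 3.29 and 4.64 TPM in CON and 5.70, 7.15 and 7.83 TPM in CDCA, with a log2 fold change of 0.70 ± 0.14 (SE, FDR = 0.0064). HERC5, a ligase for ISG15, had a log2 fold change of 0.45 ± 0.13 (SE, FDR = 0.021), which did not pass in 6 of 14 alternatives, among them those without CON replicate 2, CON replicate 3, CDCA replicate 1 or CDCA replicate 3 (FDR up to 0.084). HERC6, a relative of HERC5, did not pass, with a log2 fold change of 0.13 ± 0.15 (SE, FDR = 0.48). UBA7, the activating enzyme, was under the filter with 0.38, 0.50 and 0.72 TPM in CON and 1.21, 1.26 and 1.22 TPM in CDCA, and without the filter its FDR was 0.029. USP18, which removes ISG15, lay between 0.05 and 0.25 TPM in all 6 libraries, with overlapping groups.

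Under the filter lay 44 pathway genes that were not 0 in every library. Of these 9 were higher and 3 lower in CDCA without overlap of the groups, against 9.72% and 5.92% of all 13841 such genes. An FDR under 0.05 without the filter was also reached by 4 of the higher and 2 of the lower genes, against 3.42% and 2.21% of all. RSAD2, SOCS1 and STING1 were named after their values were seen. RSAD2 (viperin, which blocks viral RNA synthesis) had 0.10, 0.07 and 0.00 TPM in the CON group and 1.44, 0.85 and 0.82 TPM in the CDCA group, and without the filter the FDR was 0.0048. SOCS1, an inhibitor of JAK kinases, had 0.11, 0.05 and 0.08 TPM in the CON group and 1.05, 1.15 and 1.01 TPM in the CDCA group, with an FDR of 0.0006 without the filter. STING1, the adaptor of cytosolic DNA sensing, went the other way, with 1.24, 1.37 and 1.98 TPM in the CON group and 0.34, 0.22 and 0.83 TPM in the CDCA group, and an FDR of 0.039 without the filter.

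**Figure D3:**
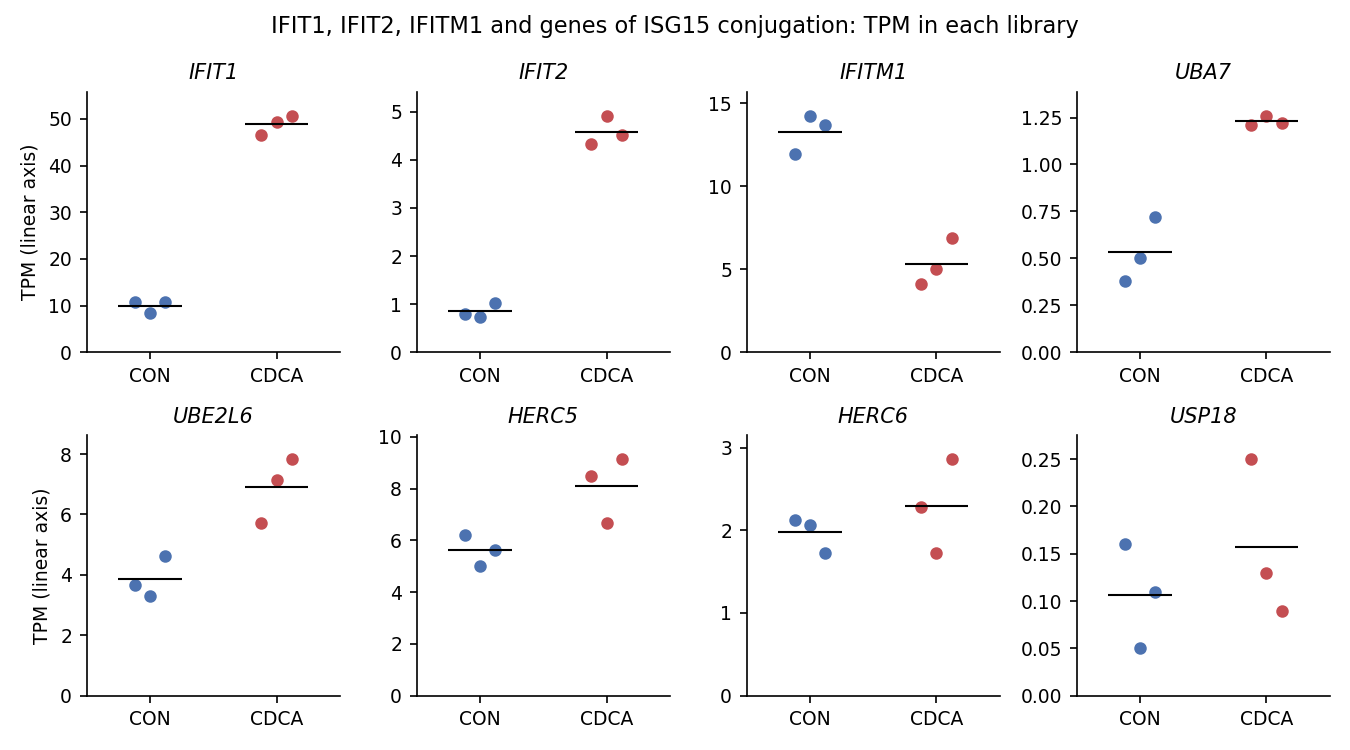
TPM in each library, on linear axes from 0, for the called genes IFIT1, IFIT2 and IFITM1 and for genes that attach ISG15 to proteins or remove it. Points are libraries and black lines group means. IFIT1 lies between 46.5 and 50.7 TPM in CDCA and at most at 10.8 TPM in CON, IFITM1 is lower in all CDCA libraries, and HERC6 and USP18 overlap between groups.

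Interferon transcripts were few. All 8 ligand genes given had a row and 2 reached 1 TPM. IFNE, an interferon that epithelia of the reproductive tract are known to make without infection, rose from 3.46, 3.46 and 3.03 TPM in CON to 5.73, 4.61 and 5.61 TPM in CDCA, with a log2 fold change of 0.55 ± 0.10 (SE, FDR = 0.0041). The omega interferon row (IFNW1) had 2.39, 0.99 and 1.92 TPM in CON and 2.68, 2.25 and 3.03 TPM in CDCA, with overlap and an FDR of 0.13. Pig type I interferons form large families of similar genes, so how reads were divided among them is uncertain. The other 6 ligand genes lay between 0.00 and 0.44 TPM. Among them IFNB1, chosen after its values were seen, had 0.13, 0.00 and 0.36 TPM in CON and was listed at 0 in the 3 CDCA libraries.

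Of the receptor and JAK-STAT genes, 18 were given and listed and 11 were tested, of which 5 rose, 0 fell and 6 did not pass, beside 29.3% higher and 23.9% lower over all tested genes. Their median log2 fold change was 0.18 beside 0.05 for all, and with the mitochondrial mRNAs out of the totals it was 0.09 beside -0.08, with 5 rises and 1 fall. IFNAR2, a chain of the type I interferon receptor, was called higher, at 0.61, 0.36 and 0.39 TPM in CON and 2.07, 1.51 and 2.41 TPM in CDCA (log2 fold change 1.04 ± 0.16 SE, FDR = 0.0017). It passed the filter only through the CDCA group. Its log2 fold change was 0.96 with the mitochondrial mRNAs out of the totals, 0.99 without CON replicate 2 and 0.94 without CDCA replicate 3, where it was not called. Its partner chain IFNAR1 was at 0.00 to 0.29 TPM in both groups. Of the interferon gamma receptor chains, IFNGR2 rose from 15.0 ± 0.47 to 28.1 ± 1.71 TPM (SD, n = 3, FDR = 5.8e-05). Its log2 fold change was 0.86, so it was not called. IFNGR1 was at 0.00 to 0.18 TPM in all libraries. The low values of IFNAR1 and IFNGR1 speak only for their listed rows, and the receptors were not compared by a test.

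STAT2, which binds IRF9 in type I interferon signalling, had 0.07, 0.17 and 0.00 TPM in CON and was listed at 0 in the 3 CDCA libraries. IRF9, named after its values were seen, rose from 5.14 ± 0.57 to 8.62 ± 0.73 TPM (SD, n = 3, FDR = 0.0017).

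Among the other interferon regulatory factors and their binding proteins, 8 of 10 were tested, of which 3 rose, 1 fell and 4 did not pass, against 29.3% and 23.9% of all tested genes. The median log2 fold change was 0.25, and it was 0.12 with the mitochondrial mRNAs out of the totals and 0.42 without CDCA replicate 3. The gene that fell, IRF2BP1 (log2 fold change -0.19, FDR = 0.028, named after its values were seen), did not pass when any 1 of the 6 libraries was left out (FDR up to 0.079). IRF2BPL, named for its likeness to a partner of IRF2, was called higher, from 3.13, 3.96 and 4.02 TPM in CON to 8.68, 7.65 and 10.3 TPM in CDCA (log2 fold change 1.07 ± 0.13 SE, FDR = 0.0006). It was not called with the mitochondrial mRNAs out of the totals (0.94), without CON replicate 1 (0.98) or without CDCA replicate 3 (0.97). Of 12 nucleic acid sensors and their adaptors 8 were tested, of which 3 rose, 2 fell and 3 did not pass, near the 29.3% and 23.9% of all tested genes, and none was called. Their median log2 fold change was -0.07, and leaving out 1 library it ranged from -0.10 without CON replicate 3 to -0.006 without CDCA replicate 2. Over the same 8 genes it was -0.19 with the mitochondrial mRNAs out of the totals, where 2 rose and 3 fell, -0.12 with median ratio scaling and -0.05 where the listed TPM were rescaled to 1000000 per library. With the genes that each scaling itself brought past the filter it was -0.31 over 9, -0.26 over 9 and 0.09 over 11 genes. IFIH1 (MDA5, a sensor of long double-stranded RNA) rose from 1.87, 1.57 and 1.84 TPM to 4.17, 3.73 and 4.04 TPM, a log2 fold change of 0.85 ± 0.09 (SE, FDR = 0.0004). TBK1, a kinase that activates IRF3, rose from 25.7 ± 2.48 to 46.4 ± 0.76 TPM (SD, n = 3, FDR = 0.00013).

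The class I heavy chains that pair with B2M were represented by 3 rows of the 11 names given. The most abundant, described in the table as a class I heavy chain-like gene, had 27.2, 29.2 and 29.7 TPM in CON and 31.6, 32.5 and 32.6 TPM in CDCA. The log2 fold change came to 0.16 ± 0.05 (SE, FDR = 0.028). It passed in 4 of 14 alternatives, and the FDR reached 0.84 with the mitochondrial mRNAs out of the totals, where the log2 fold change was 0.01. The FDR was also over 0.05 without CON replicate 1, CON replicate 2 or any 1 of the CDCA libraries. SLA-8 had 1.28, 0.98 and 3.21 TPM in CON and 1.94, 2.78 and 1.39 TPM in CDCA (FDR = 0.69). SLA-7 had 1.41, 0.86 and 0.84 TPM in CON and 1.05, 1.02 and 1.01 TPM in CDCA (FDR = 0.98). Class I heavy chains are near-identical and highly variable between animals, so reads may be split among them or lost, and the mean B2M level was 46.9 times that of the 3 listed heavy chains together in CON and 54.4 times in CDCA.

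**Figure D4:**
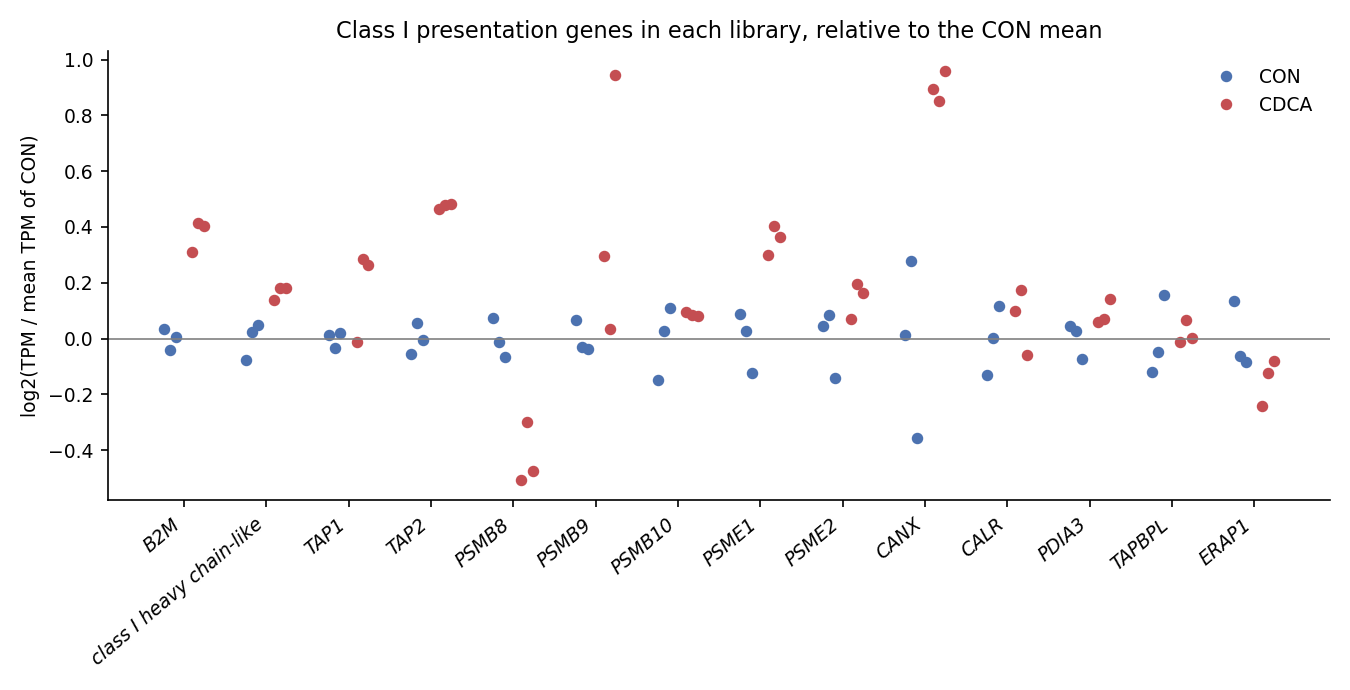
Log2 of the TPM in each library over the CON mean of the same gene, for B2M, TAP1 and other genes of the class I route. Each gene has 3 CON and 3 CDCA points. B2M, the heavy chain-like gene, TAP2, PSME1, PDIA3 and CANX lie higher and PSMB8 lower in all CDCA libraries than in any CON library, a lack of overlap seen for 61.5% of all tested genes. PDIA3 did not pass the test (FDR = 0.13), and the other 7 genes overlap between groups.

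Of 18 genes given that supply and load class I peptides, 17 had a row and 16 were tested, of which 6 rose, 3 fell and 7 did not pass, none of them called, beside 29.3% higher and 23.9% lower over all tested genes. Their median log2 fold change was 0.12, and with the mitochondrial mRNAs out of the totals it was -0.03 over the same 16 genes, with 4 rises and 4 falls. The largest changes were those of CANX (calnexin, which holds new heavy chains), with 6.35, 7.63 and 4.92 TPM in CON and 11.7, 11.4 and 12.2 TPM in CDCA (log2 fold change 0.82 ± 0.14 SE, FDR = 0.0024), and of PSMB7, a subunit of the constitutive proteasome, which rose from 182 ± 5.55 to 262 ± 18.3 TPM (SD, n = 3, FDR = 0.00039). The genes that fell were PSMB8, PSME3 (log2 fold change -0.25, FDR = 0.0085), a proteasome activator, and LNPEP (log2 fold change -0.38, FDR = 0.011), an aminopeptidase, named after their values were seen.

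Other genes close to TAP1 in function or position were named after their values were seen. TAP2, the other subunit of the transporter, had 9.67, 10.4 and 10.01 TPM in CON and 13.8, 14.0 and 14.0 TPM in CDCA. The groups were apart, with a log2 fold change of 0.44 ± 0.05 (SE, FDR = 0.00063), and it passed in all 14 alternatives. PSMB8 and PSMB9 encode subunits of the immunoproteasome, and RefSeq places them on either side of TAP1. PSMB8 fell, from 33.1 ± 1.66 to 24.7 ± 1.96 TPM (SD, n = 3, FDR = 0.0027), and PSMB9, with 2.31, 2.16 and 2.15 TPM in CON and 2.71, 2.26 and 4.25 TPM in CDCA, did not pass (FDR = 0.18). Whether the change of TAP1 differed from that of TAP2 or PSMB8 was not tested.

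Class II genes were low throughout, with 7 of 14 tested, of which 1 rose, 1 fell and 5 did not pass, against 29.3% and 23.9% of all tested genes. Their median log2 fold change was 0.03, it was -0.07 with the mitochondrial mRNAs out of the totals, and leaving out 1 library it ranged from 0.02 without CDCA replicate 3 to 0.19 without CDCA replicate 2. RFX5, a factor that binds class I and class II promoters, fell from 8.06, 7.35 and 7.85 TPM to 3.67, 4.16 and 3.70 TPM (log2 fold change -0.85 ± 0.08 SE, FDR = 0.00017). SLA-DQB1, a class II beta chain, rose from 1.36 ± 0.21 to 2.82 ± 0.42 TPM (SD, n = 3, FDR = 0.004), and did not pass when the highest listed transcript stood for the gene.

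Markers of other cell types were low. The 13 listed leukocyte markers summed to 21.4 to 23.4 TPM in CON and 24.4 to 27.1 TPM in CDCA, of which LYZ (lysozyme) made up most, at 19.1 ± 0.80 and 17.1 ± 1.20 TPM (SD, n = 3). CD3D and MS4A1 were listed at 0 in all libraries and PTPRC (CD45) reached 0.01 TPM in 1, all named after their values were seen. CD68, a lysosomal protein of macrophages, was called higher, with 0.00, 0.00 and 0.26 TPM in CON against 5.33, 4.75 and 4.44 TPM in CDCA. It passed the filter only through the CDCA group. Of 3 tested leukocyte markers it was the 1 that rose, and 0 fell, against 29.3% and 23.9% of all tested genes. Fibroblast and endothelial markers summed to 3.75 to 4.58 TPM in CON and 2.94 to 3.57 TPM in CDCA over 11 genes, and PECAM1, the most abundant, fell from 1.92 ± 0.24 to 1.22 ± 0.11 TPM (SD, n = 3, FDR = 0.025). It did not pass in 6 of 14 alternatives, among them those without CON replicate 2, CON replicate 3, CDCA replicate 1 or CDCA replicate 2 (FDR up to 0.073). The summed epithelial markers were higher in the CDCA libraries, as ISG15 and B2M were, mostly through CLDN4, and their part in the changes of the members was not tested.

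The genes whose log2(TPM + 1) followed a member most closely over the 6 libraries are a description, since libraries of 1 group share their treatment. For ISG15 they were WIZ (r = 0.999) and the chemokine CCL5 (r = 0.998), whose mean was 8.52 TPM in CON and 102 TPM in CDCA. For B2M they were TREX1 (r = 0.998), an exonuclease that clears cytosolic DNA, and BNC1 (r = 0.997). TREX1 had a mean of 0.56 TPM in CON and 1.77 TPM in CDCA, and it passed the filter only through the CDCA group. As many as 1057 tested genes had r over 0.95 with ISG15 and 987 with B2M, against 11 with OAS1 and 19 with TAP1. OAS1 was followed by RAB19 (r = 0.998) and TAMM41 (r = 0.990). TAP1 was followed by a SNORA71 row (r = 0.990) and an unnamed gene ID (r = 0.986), both listed at 0 in the 3 CON libraries and in CDCA replicate 1.

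**Figure D5:**
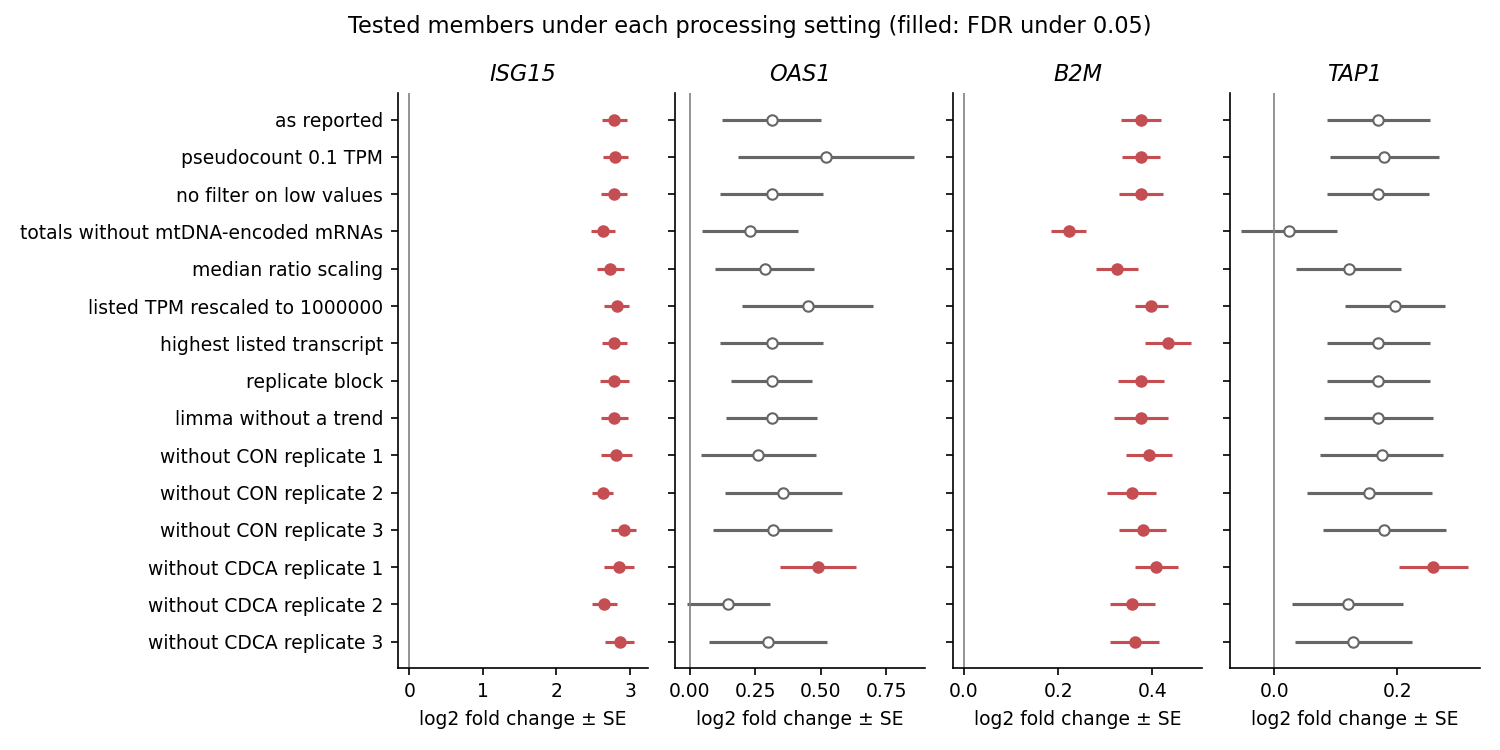
Log2 fold change and standard error of the 4 tested members as reported and under each of 14 other settings. Filled points have an FDR under 0.05. ISG15 and B2M pass in every setting, and OAS1 and TAP1 pass only without CDCA replicate 1.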

How the data were processed

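RNA-seq was measured in 6 IPEC-J2 libraries, 3 per group. TPM per listed transcript, which the authors made with RSEM, are the deposited values. The submitters' processing notes also name Bowtie 0.12.2 and mm10, a mouse build, while the gene IDs are of the pig, so no coordinates are given. The table holds no counts, so no count test was run and the depth behind a value is unknown. TPM were summed per gene ID. Symbols came from the deposited table (16719 IDs) and then from a table of symbols (782 more); 14407 IDs had none, and of 14247 named in both, 267 differed. RefSeq served for gene neighbours only.

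log2(TPM + 1) was compared between groups in R 4.3.3 with limma 3.58.1 (lmFit, eBayes with a trend) for 8708 genes whose mean over the libraries reached 1 TPM, with Benjamini-Hochberg adjustment over all of them. A gene rose or fell at an FDR under 0.05, and was called where its log2 fold change also exceeded 1 in size. On 3 simulated sets with 200 changed genes each, the steps recovered 100% of them with 0 false calls. The planted changes were all 2 in size on the log2 scale, and every gene had the same noise. The simulation thus does not speak for smaller changes or for noisier genes of low level. The members and lists were chosen with earlier results of these data known, and some list genes were matched by description after the table was seen. Named were the members, the class I heavy chains, in each list the called genes (or the 2 of largest change), a set of receptor and STAT genes (1 of them not reported here), the 2 genes most like each tested member, and the most abundant marker of each list. A planned search of promoter motifs was not run. Alternatives were another pseudocount, no filter, 3 other scalings, the highest transcript, a replicate block, limma without a trend, and leaving out each library.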

Additional observations from a re-analysis of the deposited data

How the results depend on the processing

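ISG15 and B2M stayed past the FDR threshold and higher in all 14 alternatives, with log2 fold changes of 2.63 to 2.92 and 0.36 to 0.41 when 1 library was left out. Over these 6 fits OAS1 ranged from 0.15 to 0.49 and TAP1 from 0.12 to 0.26, each passing only without CDCA replicate 1, and the ID named ZBTB22 or TAPBP from -0.36 to -0.26. Of 437 recomputed values (members' fold changes, counts of genes and the summed members' ratio), 387 were classed as the same. Of the rest 48 moved, 2 became stronger and 0 reversed. A fold change was the same if it kept its direction and side of the FDR threshold. A count or the summed ratio was the same within a set margin, so it could differ. For example, 221 genes called higher without mitochondrial mRNAs in the totals were classed as the same as the reported 306. List medians are not among the recomputed values. Those of the peptide supply and class II genes changed sign with the scaling, as given with each list. So did that of the sensors once the genes tested changed with it. The cause was not tested.

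With a pseudocount of 0.1 TPM 509 genes were called higher and 505 lower, with the listed TPM rescaled 523 and 481, and with that pseudocount and no filter, a setting chosen after seeing the data, 768 and 661. Without mitochondrial mRNAs in the totals the summed members' ratio was 1.44, and 9 other interferon-stimulated genes rose. In that setting 1 receptor gene, 4 sensors, 5 peptide supply genes, 2 epithelial and 1 leukocyte markers fell. No class I heavy chain rose (0) there, without the filter, with median ratio scaling, by the highest transcript or without a trend. By the highest transcript 0 sensors fell and 0 class II genes rose, and without a trend 2 class II genes and 2 leukocyte markers rose. Rescaled, 2 leukocyte markers and 1 fibroblast or endothelial marker rose and 0 regulatory factors fell. Without the filter 3 leukocyte markers rose and 0 fibroblast or endothelial markers fell, and with median ratio scaling 1 leukocyte marker fell.

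Leaving out 1 library, between 311 and 324 genes met the call rule upward and between 338 and 359 downward, 10 to 12 other interferon-stimulated genes rose and 5 to 6 fell, and 0 to 1 class I heavy chains rose. Under these fits 0 to 1 receptor genes, 1 to 2 sensors, 1 to 2 class II genes and 0 to 1 fibroblast or endothelial markers fell, 1 to 2 class II genes rose, and 0 regulatory factors fell.

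Same-numbered libraries did not deviate together (r = -0.04, -0.09 and -0.05), and no library correlated best with its own number, so the numbers were not taken as pairs. With the replicate number as a block, ISG15 had an FDR of 0.00097 and B2M of 0.0042, TAP1 and OAS1 kept an FDR over 0.05, 2316 genes were higher and 1902 lower, and 0 regulatory factors and 0 fibroblast or endothelial markers fell. The depth behind the members under 1 TPM is unknown.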
